A study of Mus musculus with 6 samples.

Results

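Foxo3, the insulin receptor gene Insr and 4 stress genes linked to FoxO factors or to p53, namely Sesn1, Trp53inp1, Gabarapl1 and Mxi1, were followed in the ventricles of newborn mice without cardiac miR-125b-1. Every probe set of the table analysed here that the platform annotation assigns to one of these 6 genes was kept. This gave 10 of its 271 probe sets and 6 of its 215 named genes. Any further probe set of these genes on the array, outside the table, is not seen here. Of the 10, 9 carry the name of 1 gene, and 1 is annotated to Foxo3 together with the predicted gene Gm38485 and is described apart. In the table, Sesn1 has 4 probe sets and each of the other genes has 1 of its own. The 6 genes were chosen on the difference between knockout and wild-type in these same arrays, and the table itself holds no probe set whose group means differ by less than 1.00 on the log2 scale. The values below are therefore a description, and no test of a gene is given.

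RNA came from ventricles taken at postnatal day 1. Wild-type mice carried aMHC-Cre with intact alleles of the microRNA (aMHC-Cre; 125b1+/+), and knockout mice carried aMHC-Cre with loxP-flanked alleles (aMHC-Cre; 125b1f/f), so the Cre transgene was shared by both groups. There were 3 Affymetrix mouse genome arrays per group, on which probe set intensity was measured in 1 colour. The Cre is driven by the Myh6 (aMHC) promoter, which acts in cardiomyocytes, and the locus should stay intact in the other cells of the ventricle. A second locus encodes the same mature microRNA and was not targeted. Because whole ventricles were used, a change in the number of cells of a type and a change in RNA per cell cannot be told apart. The paper's methods speak of 3 independent experiments for the arrays. Nothing states whether an array holds 1 pup or several, so the spread between arrays may be partly technical.

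FoxO factors such as Foxo3 are transcription factors that insulin restrains. When insulin binds its receptor, the kinase Akt phosphorylates FoxO and keeps it out of the nucleus, and when the signal is low FoxO enters the nucleus and turns on genes of stress resistance, autophagy, protein breakdown and cell cycle arrest. The insulin receptor gene is itself a known FoxO target, which forms a feedback loop. Sestrins and the p53-inducible nuclear protein are classical p53 targets that also respond to FoxO, and in heart muscle FoxO activity is known for its role in atrophy and in autophagy.

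The microRNA that the knockout lacks at 1 of its loci is shown here with its relatives, since its mature 5p strand can also come from a locus that was not deleted. The seed, bases 2 to 8 from the 5′ end, is in capitals, and the sequences are from RefSeq (GRCm38.p6).
mmu-miR-125b-5p (deleted locus Mir125b-1, chr9:41581940-41581961, plus strand): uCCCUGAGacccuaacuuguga
mmu-miR-125b-5p (second locus Mir125b-2, chr16:77646279-77646300, plus strand): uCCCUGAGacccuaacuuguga
mmu-miR-125b-1-3p (deleted locus Mir125b-1, chr9:41581980-41582001, plus strand): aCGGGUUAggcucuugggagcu
mmu-miR-125a-5p (Mir125a, chr17:17830817-17830840, plus strand): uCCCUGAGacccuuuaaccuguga
The mature 5p strand is the same from both miR-125b loci, and its seed is shared by miR-125a-5p, miR-351-5p, miR-6367 and miR-6394, so that 5 mature names carry it. The 3p strand of the deleted locus has another seed, which no other mature mouse microRNA of the RefSeq table carries. The array has no measurement of these microRNAs in the table, and transcripts were not searched for seed matches here.

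All 10 probe sets were higher in the knockout, and in none of them did a knockout array overlap a wild-type array. This must be read against the table, in which 183 of 271 probe sets (67.5%) were higher in the knockout and no probe set overlapped between the groups. At an adjusted p under 0.05 with limma, 100% of the probe sets of the table were called because the table was selected for differing probe sets, so a call of a member carries no information. The log2 differences of the 10 probe sets ran from 1.11 to 2.30 with a median of 1.50, beside a median of 1.41 over the 183 higher probe sets of the table. Of these 10, 4 belong to Sesn1, which had the largest differences. By the brightest probe set of each gene, the median of the 6 genes was 1.37, which is below 1.41. The standard errors from limma were 0.11 to 0.12.

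**Figure D1:**
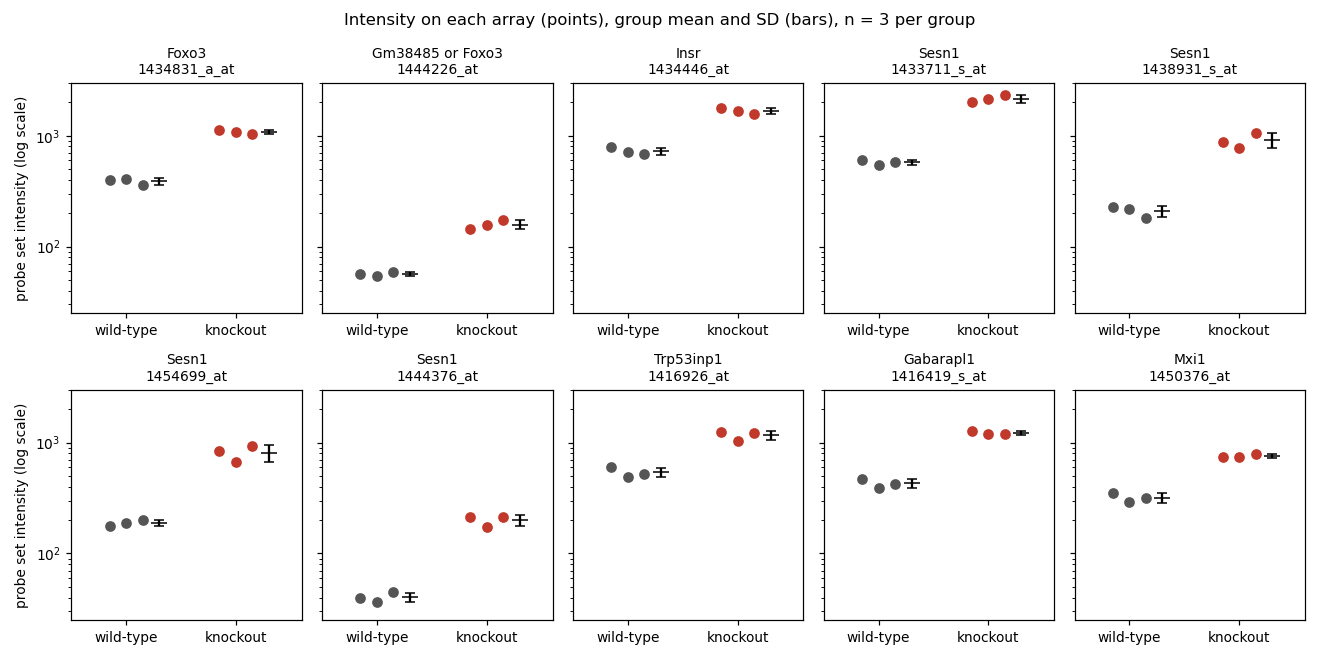
Probe set intensity (log scale) of the 10 probe sets on each of the 3 wild-type arrays (grey) and 3 knockout arrays (red), with the group mean and SD as bars. No panel shows an overlap, and the widest gap is in the dimmest Sesn1 probe set, at 40.4 in the wild-type and 199.6 in the knockout.

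Insr encodes the insulin receptor, the tyrosine kinase at the top of the pathway. Its probe set had an intensity of 787, 706 and 683 on the wild-type arrays and 1786, 1664 and 1572 on the knockout arrays. The lowest knockout array was 2.00 times the highest wild-type array. The means were 725 ± 54.7 and 1674 ± 107 (SD, n = 3 each), which is 2.31-fold higher in the knockout. The log2 difference was 1.21 with a standard error of 0.11.

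Foxo3 encodes the FoxO factor at the lower end of the same pathway. The probe set annotated to Foxo3 alone read 400.1, 409 and 358 in the wild-type and 1133, 1087 and 1033 in the knockout. Its suffix (_a_at) marks probes that recognise several transcripts of 1 gene. The means were 389 ± 27.5 and 1084 ± 49.97 (SD, n = 3 each), a 2.79-fold difference. Its arrays were the tightest of the 10 probe sets, with a pooled SD within groups of 0.09 on the log2 scale. The probe set that Foxo3 shares with Gm38485 was dim, at 56.2, 54.2 and 59.1 in the wild-type, and at 144, 157 and 173 in the knockout. It was also 2.79-fold higher, with a log2 difference of 1.48 beside 1.48 for Foxo3 alone. Which of its 2 annotated genes gives this signal was not tested.

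Sesn1 encodes sestrin 1, a stress protein that p53 and FoxO induce and that holds back mTORC1 when amino acids are scarce. It had the largest differences of the 6 genes on each of its 4 probe sets. The brightest one read 603, 547 and 577 in the wild-type and 1999, 2128 and 2319 in the knockout. Its means were 576 ± 28.1 and 2148 ± 161 (SD, n = 3 each), which is 3.73-fold higher, and the lowest knockout array was 3.31 times the highest wild-type array. The second probe set read 226, 219.7 and 182 against 887, 779.5 and 1057, a 4.33-fold difference. The third read 176, 188 and 200.4 against 836, 665 and 931, a 4.27-fold difference. On all of these the knockout arrays stood far above the wild-type arrays, and the knockout arrays were also the more spread out. The dimmest probe set went from 39.8, 36.8 and 44.6 to 213, 174 and 212, which is 4.94-fold. The log2 differences were thus 1.90, 2.11, 2.09 and 2.30, in order of falling intensity, with standard errors of 0.11 to 0.12. The first 2 of these probe sets carry the suffix _s_at, given to probes that several transcripts share, while the third and the dimmest do not.

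Trp53inp1 encodes a nuclear protein induced by p53 that also takes part in autophagy, and its transcript is a reported target of miR-125b. Its intensity was 598, 493 and 526 in the wild-type and 1238, 1045 and 1212 in the knockout. The groups were closer here than for any other member, since the lowest knockout array was 1.75 times the highest wild-type array. The means were 539 ± 53.7 and 1165 ± 105 (SD, n = 3 each), which is 2.16-fold higher, with a log2 difference of 1.11 and a standard error of 0.12.

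Gabarapl1 encodes a protein of the ATG8 family, which is attached to the growing autophagosome membrane and binds cargo receptors. It read 470.2, 388 and 426 in the wild-type and 1267, 1204 and 1189 in the knockout. The 3 knockout arrays lay within an SD of 0.05 on the log2 scale, the narrowest of the 10 probe sets. The means were 428 ± 41.3 and 1220.1 ± 41.7 (SD, n = 3 each), a 2.86-fold difference. Its probe set ends in _s_at, so probes shared with a related transcript can add to it.

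Mxi1 encodes a partner of Max that competes with Myc for the E-box. Its probe set read 352, 289.6 and 315 in the wild-type and 736, 747 and 790.0 in the knockout. The means were 319 ± 31.6 and 758 ± 28.3 (SD, n = 3 each), which is 2.38-fold higher. The log2 difference was 1.25 with a standard error of 0.11.

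In the order of the log2 differences, the Sesn1 probe sets came 12th, 19th, 22nd and 34th among the 183 higher probe sets of the table. Gabarapl1 was 72nd, the shared and the single Foxo3 probe sets were 82nd and 83rd, Mxi1 was 116th, Insr 126th and Trp53inp1 153rd. The order of neighbours is not firm, because Gabarapl1 and Foxo3, Mxi1 and Insr, and Insr and Trp53inp1 differ by less than their standard errors of 0.11 to 0.12. The gap between Sesn1 and the rest, from 1.52 for Gabarapl1 to 1.90 for the brightest Sesn1 probe set, was larger than those errors. The errors belong to the group difference of each probe set, and a difference between probe sets was not tested.

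**Figure D2:**
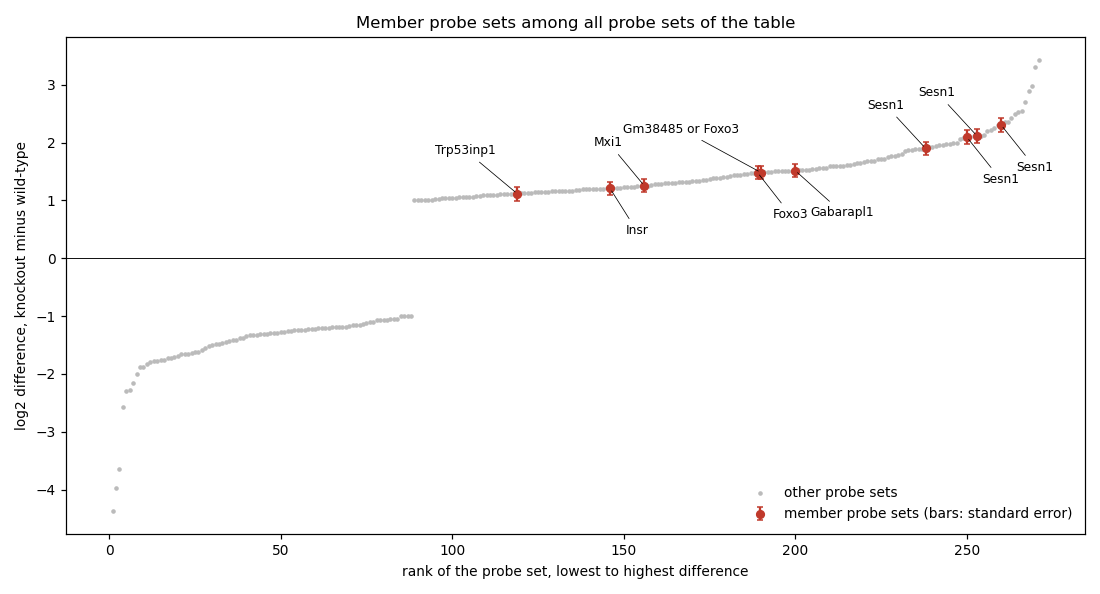
Log2 difference between knockout and wild-type (y axis) of all 271 probe sets against their rank (x axis), with the 10 member probe sets in red and their standard errors as bars. The empty band around 0 is the selection of the table, and the 4 Sesn1 probe sets lie between 1.90 and 2.30, above the other members at 1.11 to 1.52.

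The size of these differences depends on the scaling of the arrays. Between the groups, the table's median log2 intensity shifted upward in the knockout by 0.54, and there are no unchanged probe sets in the table by which to set the zero. In a table of 183 higher and 88 lower selected probe sets, such a shift cannot be told apart from the selection itself. Both rescalings take it out, so their smaller differences are not better estimates than the deposited ones. With each array centred on its median, the log2 difference was 0.94 for Foxo3, 0.67 for Insr, 1.36 for the brightest Sesn1 probe set, 0.57 for Trp53inp1, 0.97 for Gabarapl1 and 0.71 for Mxi1. After quantile normalization the same values were 0.79, 0.47, 1.21, 0.37, 0.79 and 0.63. All 10 probe sets were higher in the knockout under both. Over the table, 183 of 271 probe sets (67.5%) were higher under both, as with the deposited intensities. The kept direction is therefore not particular to the members. What the scaling changed was how many reached a log2 difference of 1. With centring these were 4 of the 10, all of Sesn1, where 24.4% of the table reached it on the higher side. With quantile normalization these were 5 of the 10, the Sesn1 probe sets and the one that Foxo3 shares with Gm38485, where 24.0% of the table did. By the brightest probe set of each member gene, Sesn1 alone reached it under either rescaling. Both counts therefore rest mainly on the probe sets of a single gene.

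**Figure D3:**
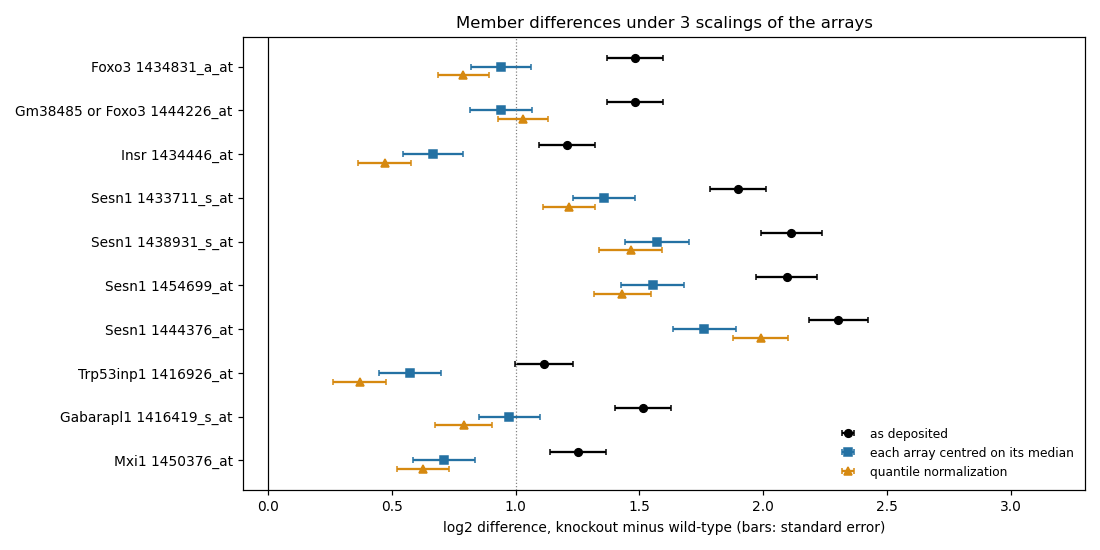
Log2 difference between knockout and wild-type (x axis) of the 10 member probe sets (rows) with the intensities as deposited (black), each array centred on its median (blue) and quantile normalization (orange), with standard errors as bars and a dotted line at 1. Every point lies to the right of 0, and under both rescalings the 4 Sesn1 probe sets stay beyond the dotted line, from 1.21 to 1.99.

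Within a group the arrays differed little, and the members did not all move together. In the wild-type, array 1 was the highest of its group in 6 of the 10 probe sets and array 2 the lowest in 6 of them. The median deviation of the 10 probe sets from their group mean was 0.09 on wild-type array 1 and -0.07 on wild-type array 2, beside 0.01 and -0.02 over the whole table. Gabarapl1, Trp53inp1 and Mxi1 shared this order, with deviations of 0.14 to 0.15 on array 1 and of -0.12 to -0.14 on array 2. The brightest Sesn1 probe set shared it too, at 0.07 on array 1 and -0.07 on array 2. Foxo3 did not, and was highest on wild-type array 2. In the knockout, array 2 was the highest in none of the 10 and the lowest in 4. Those 4 were Trp53inp1, at -0.15, and 3 of the Sesn1 probe sets, at -0.19 to -0.27. The deviations of Foxo3 and Insr on knockout arrays 1 and 3 had the opposite sign to those of the brightest Sesn1 probe set, at 0.06 and 0.10 on array 1 and -0.07 and -0.09 on array 3, beside -0.10 and 0.11. Other probe sets of these genes differed in this. The third and the dimmest Sesn1 probe sets stood at 0.06 and 0.10 on knockout array 1. The probe set shared with Gm38485 stood at -0.13 on knockout array 1 and 0.14 on knockout array 3. The largest deviation was 0.27 in size and the smallest difference between groups was 1.11. The second value is bounded by the selection, since no probe set of the table differs by less than 1.00. The comparison is therefore no support for the members.

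**Figure D4:**
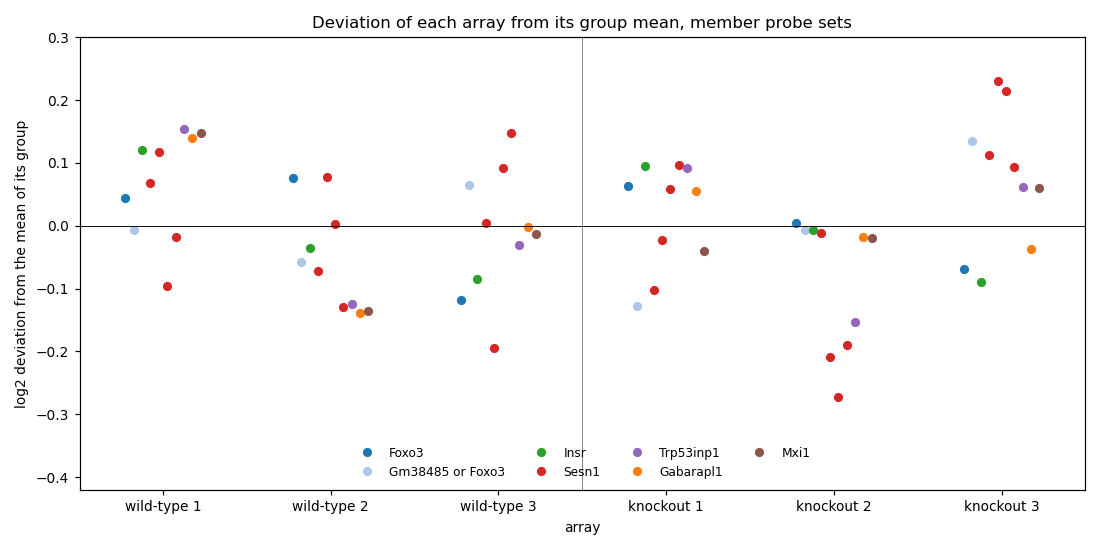
Log2 deviation of each array from the mean of its group (y axis) for the 10 member probe sets, coloured by gene, over the 6 arrays (x axis). On wild-type array 2 the points of Gabarapl1, Trp53inp1 and Mxi1 lie between -0.12 and -0.14, and on knockout array 2 the lowest points are 3 Sesn1 probe sets down to -0.27.

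Other genes of these pathways were counted from 8 lists, of which only the genes in the table are seen. Over the table, 143 of 215 named genes (66.5%) were higher in the knockout. Of 39 listed FoxO targets, 10 are in the table and all 10 were higher, with a median log2 difference of 1.38, beside 1.41 over the higher probe sets. Of these, 5 are members, and the other 5 are Klf15, Glul, Pnpla2, Ccng2 and Cited2. Klf15, a transcription factor of muscle metabolism, went from 128 ± 19.1 to 750.4 ± 63.7 (SD, n = 3 each), a 5.87-fold difference. Glul, which encodes glutamine synthetase, has 2 probe sets, which disagree in size. The brighter one, used for the list, went from 728 ± 64.5 to 2787 ± 182 (SD, n = 3 each) and was 3.83-fold higher. The dimmer one went from 134 ± 3.52 to 1057 ± 74.8 (SD, n = 3 each) and was 7.86-fold higher, beyond the difference of Klf15. Pnpla2, the adipose triglyceride lipase, was 2.78-fold higher. Ccng2, a cyclin linked to cell cycle arrest, went from 367 ± 48.5 to 899 ± 94.8 (SD, n = 3 each), a 2.45-fold difference. Cited2, a transcriptional co-regulator that binds CBP and p300, was 2.38-fold higher. Several of these genes also answer to other signals, and the list was written with earlier results of these data known, so it is no independent sign of FoxO activity. The remaining 29 listed targets are not analysed here.

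**Figure D5:**
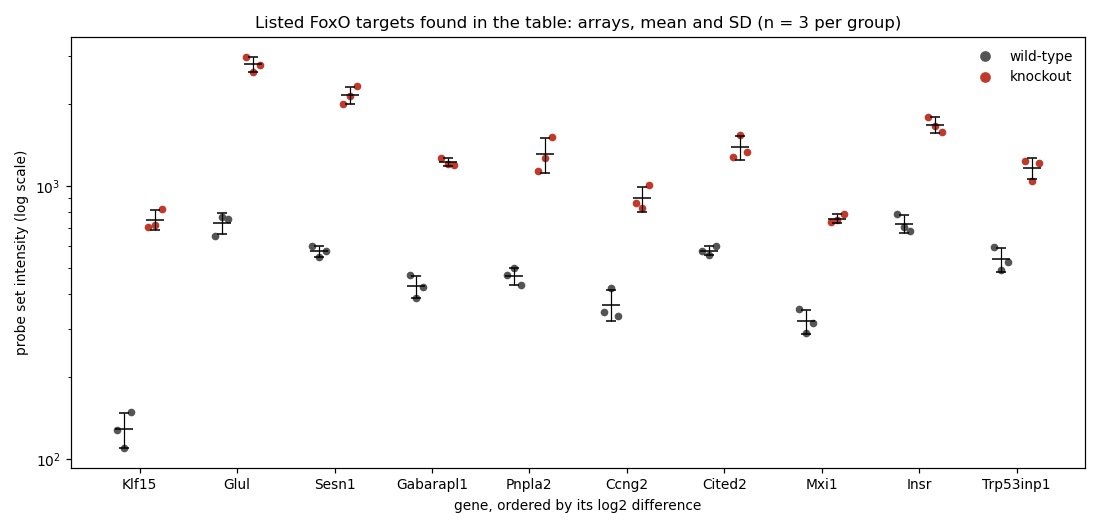
Probe set intensity (log scale, y axis) of the 10 listed FoxO targets in the table, by the brightest probe set of each gene (x axis, ordered by log2 difference) on 3 wild-type (grey) and 3 knockout (red) arrays, with bars for group mean and SD. The knockout arrays are above the wild-type arrays for every gene, from a 5.87-fold difference in Klf15 to a 2.16-fold difference in Trp53inp1.

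The other lists held few genes of the table. Of 44 genes of insulin signalling, Insr and Foxo3 are in it, with none of the listed receptor substrates, kinases or other FoxO genes. Of 32 p53 targets, Sesn1 and Trp53inp1 are in it. Of 36 autophagy genes, Gabarapl1 and Trp53inp1 are. Of 35 genes of sestrin and the inputs to mTORC1, Sesn1 was joined by Flcn, which encodes folliculin, a regulator of the Rag proteins that bring mTORC1 to the lysosome. Flcn went from 217 ± 24.6 to 864 ± 168 (SD, n = 3 each) and was 3.95-fold higher. Of 15 genes of the Myc, Max and Mxd network, Mxi1 was joined by its relative Mxd1, another Max partner, which went from 37.1 ± 4.03 to 84.6 ± 8.39 (SD, n = 3 each), a 2.28-fold difference at low intensity. Of 35 genes of hypoxia and glycolysis, Mxi1 was joined by the glucose transporter gene Slc2a1, which was 3.19-fold higher. Of 28 reported targets of miR-125b, the table holds Trp53inp1 alone. All of these genes were higher in the knockout, and the share of each list that did not change is not known from a table of selected probe sets.

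Among marker genes of cell types, 8 lists were looked up in the table. Of the ventricular cardiomyocyte markers, 1 of 7 is present, Myh7, which was 10.8-fold higher in the knockout, and of the fibroblast markers 1 of 5, Col3a1, which was 2.14-fold lower. None of the 4 listed markers each of atrial cardiomyocytes, endothelial cells, smooth muscle with pericytes, erythroid cells, leukocytes and skeletal muscle is in it. The labelled tissue and the cell make-up of the arrays can therefore not be checked from these values, and the part of cell composition in the members' differences was not tested.

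Of all genes in the table, the profile over the 6 arrays nearest to that of Foxo3 was Frat2, which encodes an inhibitor of GSK3, with a root mean square distance of 0.06 on the log2 scale after each gene was centred on its own mean. Its intensity was 61.7 ± 2.73 in the wild-type and 162 ± 2.90 in the knockout (SD, n = 3 each), a 2.62-fold difference. Next came Mtmr14, a phosphatase of the phosphoinositides that recruit autophagy proteins, at 107 ± 5.09 and 302 ± 5.04 (SD, n = 3 each) and a distance of 0.07. The mitochondrial carrier gene Slc25a33, Clca3a1 and the transcriptional co-factor gene Vgll3 followed, at distances of 0.09 to 0.10, and were 2.82 to 3.01-fold higher. The probe set of Clca3a1 ends in _x_at, and probe sets with that suffix were left out in an alternative below. A small distance mainly reflects a similar difference between the groups, which is what the table was selected for.

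Sequence was looked at because the rule did not use it. RefSeq windows of 250 bases before to 50 bases after a start site were at hand for Foxo3, Sesn1, Gabarapl1 and Mxi1, 7 windows in all, and the promoters of Insr and Trp53inp1 were not analysed here. The FoxO core GTAAACA was sought on both strands. It is in 3.65% of the 32851 windows of the RefSeq table, and in at least 1 window of 4.05% of the genes. Among the members it is in 1 of the 2 windows of Sesn1 and in 1 of the 3 windows of Mxi1, and in neither Foxo3 nor Gabarapl1. The matches are shown in capitals, each within 30 bases read along the gene, since Sesn1 and Mxi1 are the genes whose listing as FoxO targets they bear on.
Sesn1 (GRCm38.p6, chr10:41810585-41810614, plus strand): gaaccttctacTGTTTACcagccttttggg
Mxi1 (GRCm38.p6, chr19:53329453-53329482, plus strand): cgcgcggagaaGTAAACAaaccgcgcgcgg
The Sesn1 match is on the opposite strand and begins 23 bases into the transcript, counting the start site as base 1. The Mxi1 match is on the strand of the gene and begins 231 bases before its start site. Genes with several windows have more chances of a match, and a match in 7 letters is not a bound site.

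Of the other motifs, 2 had no match among the members. The insulin response element CAAAACA, in 6.28% of all windows, and the E-box CACGTG, in 7.15%, are in none of the 7 windows on either strand. The p53 decamer, of which a full p53 response element needs a pair, is in 8.36% of all windows and in the other Sesn1 window, where it begins 173 bases before the start site. This lone decamer is shown because Sesn1 is a listed p53 target, and it is not a full response element.
Sesn1 (GRCm38.p6, chr10:41887255-41887284, plus strand): gcttggccttcAAGCTTGTTTttgctggcc
The related forkhead sequence ATAAACA, which was added after the windows had been seen and is in 4.60% of all windows, is in that of Gabarapl1, 95 bases before the start site. The 250 bases before the start of Gabarapl1 are given with the match in capitals, since this gene is on the FoxO and the autophagy lists and has a single start site in the RefSeq table.
Gabarapl1 (GRCm38.p6, chr6:129532942-129533191, plus strand): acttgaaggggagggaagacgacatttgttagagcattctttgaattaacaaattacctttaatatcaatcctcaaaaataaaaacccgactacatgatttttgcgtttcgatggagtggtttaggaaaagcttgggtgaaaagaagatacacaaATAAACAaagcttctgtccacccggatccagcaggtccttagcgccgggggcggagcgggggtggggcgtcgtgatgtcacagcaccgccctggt
The 2 FoxO motifs differ in the base at their start and cannot match at the same place. Binding of a factor was not measured in these samples.

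By position, Sesn1 and Foxo3 are near neighbours on chromosome 10 in RefSeq. Armc2 is the only protein-coding gene that starts between them, and none of the 7 annotated genes that do is in the table. The other members lie on chromosomes 4, 6, 8 and 19.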

How the data were processed

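The authors hybridised ventricular RNA of 3 wild-type and 3 knockout mouse samples to Affymetrix mouse genome arrays and analysed them in GeneSpring GX with cutoffs on log2 fold change and p. They deposited probe set intensity on a linear scale, here from 30.1 to 18292. The summarization, background correction and normalization between arrays are not given in the sources used here. The table used here holds 271 selected probe sets. The number of arrays limits the precision.

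Intensities were set to log2 with no pseudocount. Knockout and wild-type were compared over the whole table with limma 3.58.1 (lmFit and eBayes, run in R 4.3.3) at a Benjamini-Hochberg adjusted p of 0.05, and the fit was tested on simulated data. The simulated probe sets were not selected and included some without a difference, so that test does not vouch for the standard errors here. Because the variance prior of the limma fit, with 28.1 degrees of freedom, comes from selected probe sets, standard errors can be too small. Gene names came from the platform annotation and RefSeq gene numbers (GRCm38.p6). Of the 271, 253 have 1 gene (all matched), 3 several and 15 none. The brightest probe set stood for a gene. Groups came from sample titles.

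The members, the lists, the motifs and the tests were chosen with earlier results of these data known. Named genes are the 6 members, up to 6 genes per list present in the table, and the 5 profiles nearest to Foxo3; others were chosen after their values were seen. Alternatives were another scaling, a pseudocount of 50, a filter on the dimmest 25%, probe set choice, the replicate number as a block, trended and robust eBayes, the methods' t-test and leaving out each array.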

Additional observations from a re-analysis of the deposited data

How the results depend on the processing

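The members' median log2 difference over the 6 genes was 1.37 as reported, and 0.82 with each array centred on its median, 0.71 after quantile normalization, 1.26 with log2(intensity + 50) and 1.25 without probe sets ending in _s_at or _x_at, which leaves Gabarapl1 without a value. Leaving out each array in turn gave medians of 1.32 to 1.41, with 10 of 10 member probe sets higher and 271 probe sets called each time. No member changed direction under any alternative run. With an array left out or a pseudocount added this was fixed in advance. None of the 271 probe sets of the table overlapped between the groups. The filters, the replicate block and the trended eBayes leave the difference of a probe set as it was. The mean over probe sets that are all higher is higher too. Centring took 0.54 off each difference, and the smallest of the members was 1.11. After quantile normalization 183 of 271 probe sets of the table were higher, as with the deposited intensities. The kept direction is therefore no support for the members. The dimmest 25% held 2 of the 10 member probe sets, a Sesn1 one and the one shared with Gm38485, and the 8 left were higher. The mean over its 4 probe sets put Sesn1 at 2.10 in place of 1.90. The methods' t-test called 271 probe sets before and after Benjamini-Hochberg adjustment. Same-numbered arrays are not said to share a litter or day, and their deviations from the group means correlated at -0.02, 0.01 and 0.08 across probe sets, so the numbers were not taken to pair them. With the replicate number as a block the median stayed 1.37, all 271 probe sets were called, and the members' standard errors were 0.08 to 0.15 in place of 0.11 to 0.12.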

Other observations

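Some genes that act beside the members are in the table but on none of the lists, and they were chosen after their values were seen. Among genes of autophagy, Atg101, a subunit of the kinase complex that starts it, went from 174 ± 16.7 to 464 ± 71.3 (SD, n = 3 each) and was 2.65-fold higher in the knockout. Wdr45, a phosphoinositide-binding protein of the forming autophagosome, was 2.16-fold higher, on probes with the suffix _s_at. Retreg1, a receptor for autophagy of the endoplasmic reticulum, went from 2876 ± 167 to 6617 ± 352 (SD, n = 3 each) and was 2.30-fold higher. Fyco1, an adaptor that carries autophagosomes along microtubules, moved the other way, from 213 ± 21.1 to 95.8 ± 11.45 (SD, n = 3 each), and was 2.23-fold lower. Genes of autophagy in the table were therefore not all on the higher side.

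Of genes linked to muscle protein breakdown and to arrest of the cell cycle, the lysosomal protease gene Ctsl was 2.15-fold higher. Zfand5, which stimulates the proteasome, was 2.25-fold higher, on probes with the suffix _s_at. Rbl2, which encodes the pocket protein p130, went from 216 ± 15.3 to 620.4 ± 67.0 (SD, n = 3 each) and was 2.87-fold higher.

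The genes nearest in profile to the other members, by the same distance as for Foxo3, were Ggt5 for Insr at 0.06, Zfas1 for Sesn1 at 0.07, Pygl for Trp53inp1 at 0.05, Cyp27a1 for Gabarapl1 at 0.08 and Ezh1 for Mxi1 at 0.04 on the log2 scale.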
